A study of Mus musculus with 5 samples.

Results

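The collagens are the 42 mouse genes on the array whose single annotated symbol has the form Col, a number, a, a number. They were 42 of 18194 genes measured, each read on its brightest probe set. Expression was measured on 5 one-colour arrays from cultures labelled as aortic endothelial cells on a C57BL/6J background, with a time of 24 h in the titles. The titles name 3 of them control and 2 of them TNF-LTBR. TNF is tumour necrosis factor, and LTBR is the symbol of the lymphotoxin beta receptor. One treatment text, shared by all 5 samples, has stimuli given in PBS and cells given PBS alone, and names no agonist or dose, so the second group is known by its titles. The medium, also shared, held serum, heparin and ECGS, and no allele or animal age is given. The labels do not say if replicates are separate cultures, so each p-value speaks only of how far these 5 samples spread, and that spread may be technical.

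Collagens are matrix proteins built from chains that wind around each other along glycine-rich repeats. Fibrillar collagens give the vessel wall its tensile strength, and type IV collagens form the sheet-like basement membrane under the endothelium. Type VI collagen forms beaded filaments, type VIII a short-chain network, and the multiplexins, types XV and XVIII, lie at the border of basement membranes. FACIT collagens sit on the surface of fibrils made by others.

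Values are array intensities, or log2(intensity + 16) where a log2 value, mean, SD or difference is named, so an intensity of 0 lies at 4 on that scale. Median intensity of the arrays ranged from 109.9 to 120.7. Arrays of different groups shared large deviations. Over the 10916 genes bright enough to be tested, the deviation of control array 3 from its group mean correlated at 0.82 with that of TNF-LTBR array 2, and that of control array 2 at 0.80 with TNF-LTBR array 1. With 2 TNF-LTBR arrays, the deviation of one is the exact opposite of the other, so these 2 values come from the same contrast in that group. The endothelial label was also set against its markers. Of 15 endothelial genes, 8 were below the brightness filter, which kept 60% of all genes. Vwf, which encodes von Willebrand factor, lay between 4.19 and 4.54 on the log2 scale on the 5 arrays, and Tie1, an endothelial receptor, between 4.17 and 5.94. Cdh5, the cadherin of endothelial junctions, lay between 5.48 and 7.98, whereas Eng, the endothelial TGF-beta co-receptor, lay between 10.61 and 10.87. Vwf and Tie1 were therefore near the bottom of the scale on nearly all arrays. Plvap and Kdr, next after Eng among the 15 by mean log2 value, lay between 8.70 and 9.60 and between 8.08 and 8.57. Pdgfrb, a receptor of mural cells and fibroblasts, lay between 12.40 and 13.56. Vwf, Tie1 and Cdh5 were chosen after their values were seen.

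Collagens fell into 11 fibrillar genes (9 tested), 6 basement membrane (5), 3 network (1), 2 multiplexin (2), 5 beaded filament (3), 1 anchoring (1), 9 FACIT (4), 4 transmembrane (0) and 1 other (0). They had 82 probe sets in all, and 27 of the 42 genes had more than 1. No collagen passed the test between TNF-LTBR and control. In limma with Benjamini-Hochberg adjustment over all genes tested, 0 of 25 collagens past the brightness filter were called, and 0% of all tested genes were called in either direction. Every collagen tested had an adjusted p of 0.999. At an unadjusted p under 0.05, 2 of the 25 passed, Col5a3 (higher) and Col5a1 (lower), against 1.74% of all tested genes (0.944% higher, 0.797% lower). The mean was higher in TNF-LTBR for 15 collagens and lower for 10, 60% higher against 49.3% of all tested genes. Their median difference was 0.08, and that of all tested genes was -0.0036. The median of the collagens was -0.16 without control replicate 1, and leaving out TNF-LTBR replicate 2 gave -0.15, so it had no settled sign.

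**Figure D1:**
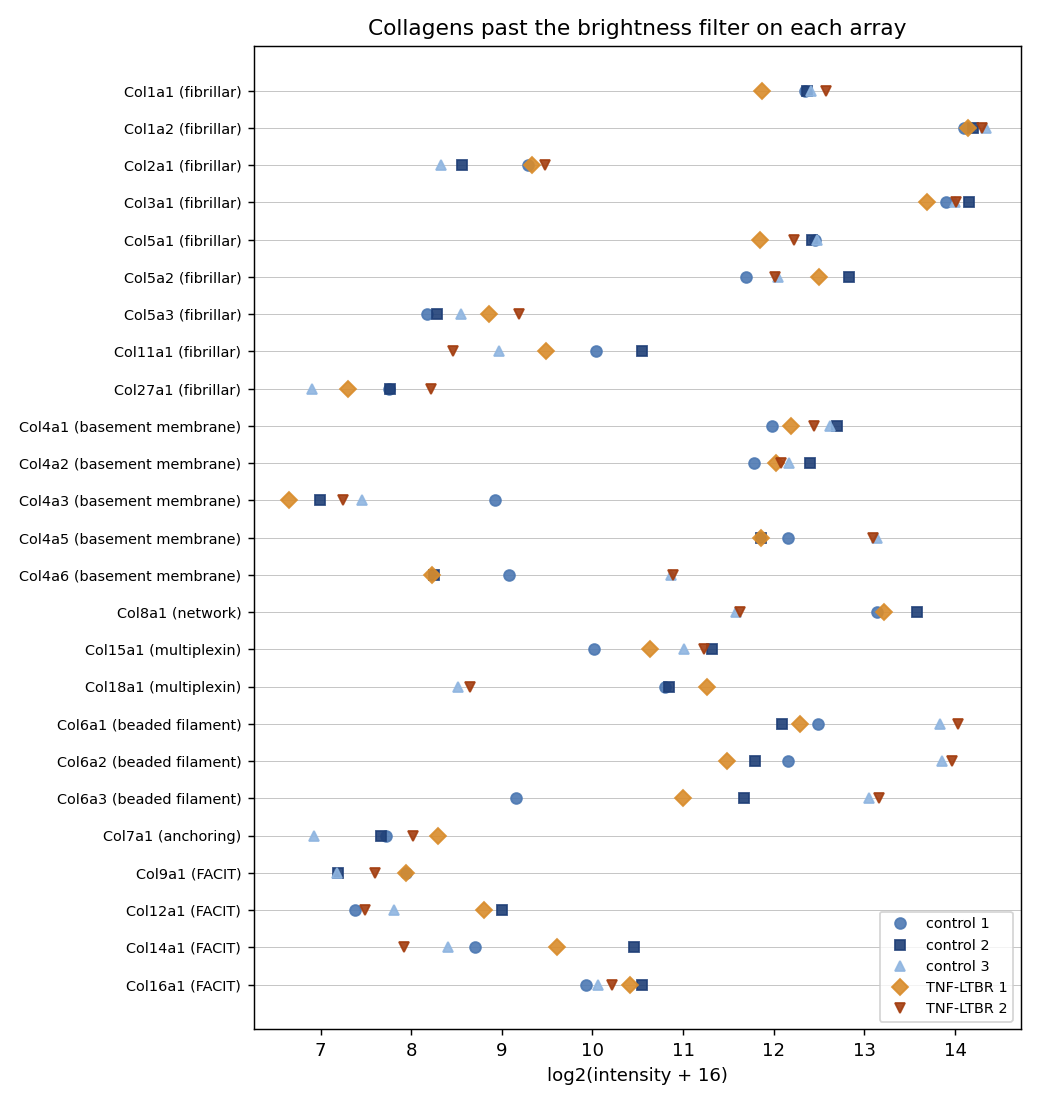
Each row is 1 of the 25 collagens past the brightness filter, by class, and each point is 1 array, on the log2(intensity + 16) scale. Col1a2, Col3a1 and Col5a1 values lie close together, whereas those of type VI chains, Col4a6, Col8a1 and Col18a1 are spread widely within both groups.

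The spread between arrays of the same group was wide for many collagens. For 22 of the 25 the difference between groups was smaller than the range of the 3 control arrays, which was so for 88.7% of all tested genes. For 18 it was also smaller than the gap of the 2 TNF-LTBR arrays, against 69.5% of all tested genes. The median range of the 3 control arrays was 1.14 over the collagens and 0.42 over all tested genes, and the median gap of the 2 TNF-LTBR arrays was 0.60 and 0.29. Collagens thus covered a wide control range at a median difference between groups, in size, of 0.17 against 0.13 for all tested genes. The groups did not overlap for 4 of the 25 collagens, or 16%, against 13.2% of all tested genes (6.93% above all controls, 6.32% below). These were Col2a1, Col5a3 and Col7a1, higher in both TNF-LTBR arrays, and Col5a1, lower in both.

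**Figure D2:**
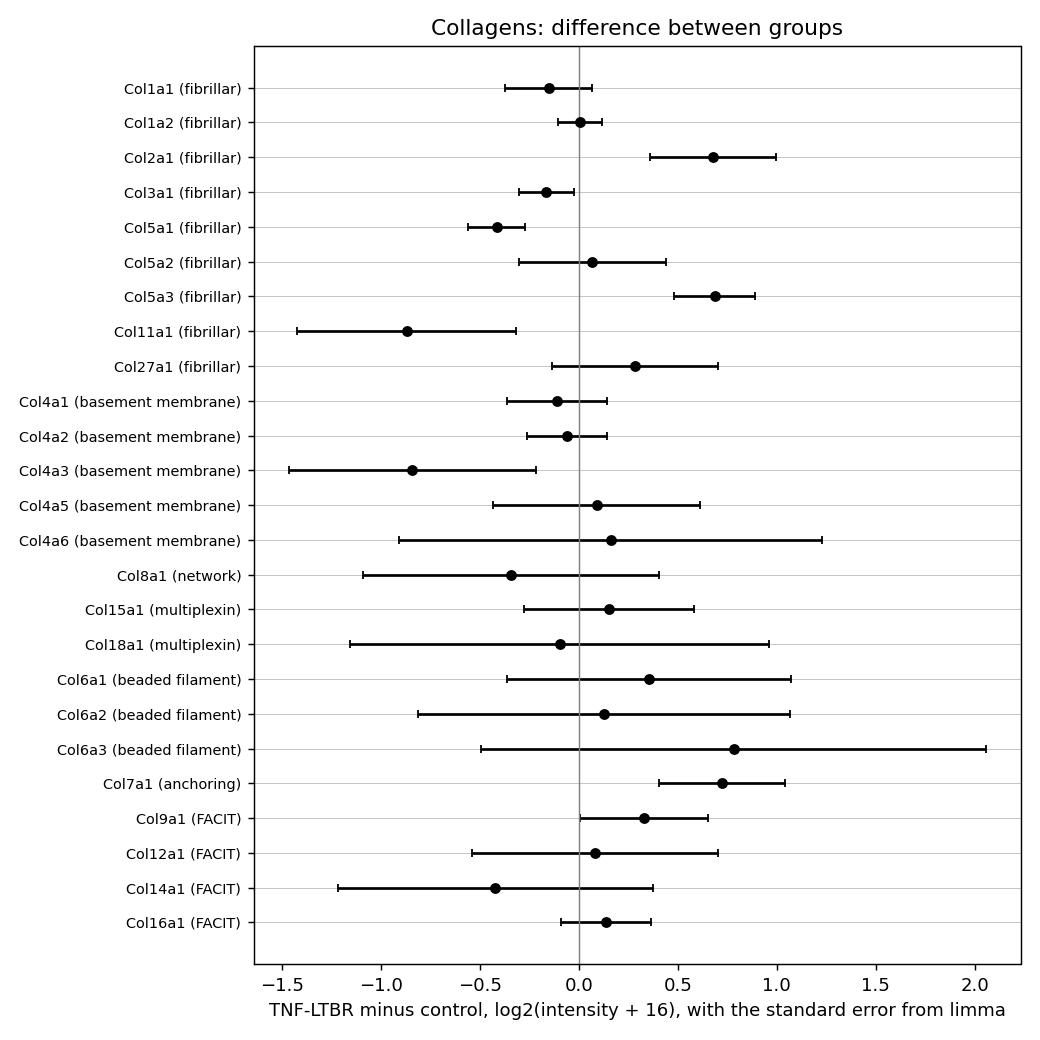
Points give the mean of the 2 TNF-LTBR arrays minus the mean of the 3 control arrays for each tested collagen, and bars the standard error from limma. Col5a3, Col7a1 and Col2a1 lie at 0.69, 0.72 and 0.68 and Col5a1 at -0.42, while the bars of the type VI chains, Col18a1 and Col4a6 span 0.

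Type I and type III collagen, the main fibril-forming collagens of the vessel wall, overlapped between groups. Col1a2, the second chain of type I collagen, had intensities of 17597, 18781 and 20691 on control arrays 1 to 3 and of 18104 and 20053 on TNF-LTBR arrays 1 and 2. Its values on all 5 arrays lay within 1.18-fold, with the groups interleaved, and its log2 difference was 0.0055 with a standard error of 0.11. Centring the arrays on their medians turned that difference to -0.02, and its other probe sets, also with overlap, differed by 0.16 and -0.26. Col3a1, the chain of type III collagen, had intensities of 15231, 18163 and 16384 in control, against 13229 and 16443 in TNF-LTBR. TNF-LTBR array 1 was the lowest and the groups overlapped, with a log2 difference of -0.17 and a standard error of 0.14. Leaving out TNF-LTBR replicate 1 gave -0.0093, while leaving out its replicate 2 gave -0.32. The other Col3a1 probe set differed by -0.34. Col1a1, the more abundant chain of the type I molecule, stood at 5200, 5273 and 5449 in control, against 3730 and 6087 in TNF-LTBR. The 3 control arrays lay within 1.05-fold of each other, and the TNF-LTBR arrays fell on either side of them, so the log2 difference was 0.20 without TNF-LTBR replicate 1 but -0.51 without its replicate 2. The other Col1a1 probe set ranked the arrays in the same order and differed by -0.06.

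Of the 3 type V chains, Col5a1 was lower and Col5a3 higher on both TNF-LTBR arrays than on all controls. Type V collagen is a minor fibrillar collagen that starts and limits the growth of type I fibrils. Col5a1, its main chain, had intensities of 5598, 5480 and 5693 in control, against 3682 and 4760 in TNF-LTBR. Both TNF-LTBR arrays lay below a narrow control range, at 12.45 ± 0.03 (SD, n = 3) in control and 12.04 ± 0.26 (SD, n = 2) in TNF-LTBR, 1.33-fold higher in control. The unadjusted p was 0.0327 and the adjusted p 0.999 (limma). Its other probe sets differed by -0.24, again without overlap, and by -0.29, where the groups overlapped. Leaving out TNF-LTBR replicate 1 gave -0.23, and the difference kept its sign in all 16 alternatives run.

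Col5a3, another type V chain, ran the other way, with intensities of 273.0, 297.0 and 357.4 in control, against 447.3 and 567.6 in TNF-LTBR. Both TNF-LTBR arrays were above all controls, at 9.02 ± 0.24 (SD, n = 2) against 8.34 ± 0.19 (SD, n = 3), 1.61-fold. The unadjusted p was 0.0187 and the adjusted p 0.999 (limma). The other Col5a3 probe set was dim, with a mean of 4.96 on the log2 scale, and differed by -0.33. Col5a2, the chain that completes the common type V molecule, had intensities of 3294, 7293 and 4221 in control, against 5783 and 4132 in TNF-LTBR. Control array 2 and TNF-LTBR array 1 were the high arrays, and the groups overlapped with a log2 difference of 0.07 and a standard error of 0.37. The difference turned to -0.18 without control replicate 1, and leaving out TNF-LTBR replicate 1 gave -0.17. The other Col5a2 probe set was highest on control array 3 and differed by -0.25. In the GRCm38.p6 gene table Col5a2 is the neighbour of Col3a1 on chromosome 1, where the ranges over the 5 arrays were 2.21-fold for Col5a2 and 1.37-fold for Col3a1.

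Cartilage-type fibrillar chains were also measured. Col2a1, the chain of type II collagen, the fibrillar collagen of cartilage, had intensities of 609.4, 361.8 and 305.1 in control, against 629.5 and 694.3 in TNF-LTBR. Control array 1 came close to TNF-LTBR array 1, the other controls lay lower, and the groups did not overlap. Its log2 means were 8.73 ± 0.50 (SD, n = 3) and 9.40 ± 0.10 (SD, n = 2), 1.60-fold, with an unadjusted p of 0.0827 in limma. The difference was 0.48 without control replicate 3 but 0.96 without its replicate 1. Col11a1, a type XI chain that joins type II fibrils, had intensities of 1035, 1478 and 483.4 in control, against 701.9 and 337.4 in TNF-LTBR. TNF-LTBR array 2 and control array 3 were the lowest arrays, the groups overlapped, and the log2 difference was -0.87 with a standard error of 0.55. It ranged from -1.38 without TNF-LTBR replicate 1 to -0.36 without its replicate 2. Its other probe set differed by -0.65. Among cartilage markers, Sox9, the transcription factor of cartilage, lay at 8.70 ± 1.04 (SD, n = 3) in control and 9.54 ± 0.90 (SD, n = 2) in TNF-LTBR. Comp, a cartilage matrix protein and the other of the 7 markers past the brightness filter, differed by -0.38, with overlap. The 5 below the filter included Acan, the cartilage proteoglycan aggrecan, at a difference of 0.0027. The summed level of the 7 was 9.33, 10.01 and 10.36 on control arrays 1 to 3, against 10.06 and 10.58 in TNF-LTBR, on the log2 scale. Control array 1, the highest control for Col2a1, was thus the lowest for this sum. The part of the sum in the Col2a1 values was not tested. Col27a1, a fibrillar chain of developing cartilage, overlapped between groups, with a log2 difference of 0.28 and a standard error of 0.42, and its other probe set differed by -0.23.

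Genes of type IV collagen lie head to head in pairs in the GRCm38.p6 gene table, Col4a1 with Col4a2 on chromosome 8, Col4a3 with Col4a4 on chromosome 1 and Col4a5 with Col4a6 on chromosome X. On their brightest probe sets, Col4a1 and Col4a2 ranked the 5 arrays in the same order, as did Col4a3 and Col4a4, and the orders differed between pairs. The other Col4a1 probe set and a further Col4a4 probe set ranked the arrays in other orders. Col4a1 and Col4a2 encode the chains of the basement membrane found in nearly all tissues. Col4a1 had intensities of 4018, 6610 and 6262 in control, against 4647 and 5559 in TNF-LTBR, and its log2 difference was -0.11 with a standard error of 0.25. Col4a2 had intensities of 3508, 5376 and 4574 in control, against 4155 and 4304 in TNF-LTBR, with a log2 difference of -0.06 and a standard error of 0.20. For both chains, on their brightest probe sets, control array 1 was the lowest and control array 2 the highest, and the TNF-LTBR arrays lay between them. Without control replicate 2 the differences were 0.02 for Col4a1 and 0.08 for Col4a2. The other Col4a1 probe set was highest on control array 3, with TNF-LTBR array 2 next, and differed by -0.02.

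Col4a5 and Col4a6 encode chains that assemble together in the basement membranes of smooth muscle. Col4a5 had intensities of 4555, 3693 and 9037 in control, against 3701 and 8719 in TNF-LTBR. Col4a6 had intensities of 524.7, 288.8 and 1847 in control, against 284.5 and 1877 in TNF-LTBR. In both genes control array 3 and TNF-LTBR array 2 were the high arrays, and control array 2 and TNF-LTBR array 1 the low ones. The range over the 5 arrays was 2.44-fold for Col4a5 and 6.30-fold for Col4a6, whereas the differences between groups were 0.09 and 0.16 on the log2 scale, with standard errors of 0.52 and 1.07. The Col4a5 difference was -0.53 without TNF-LTBR replicate 2 but 0.71 without its replicate 1, and leaving out control replicate 1 or 2 gave -0.02 or -0.18. Their other probe sets differed by 0.24 and 0.18.

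The sequence upstream of the annotated starts of this pair is shown because both genes shared their high and low arrays. It comes from the RefSeq promoter windows of GRCm38.p6, chrX:141475169-141475369 on the plus strand for Col4a5 and chrX:141474096-141474326 on the minus strand for Col4a6. Capitals mark a match, on either strand, to a CCAAT box (CCAAT), a GC box (GGGCGG) or a TATA box (TATAAA).
Col4a5: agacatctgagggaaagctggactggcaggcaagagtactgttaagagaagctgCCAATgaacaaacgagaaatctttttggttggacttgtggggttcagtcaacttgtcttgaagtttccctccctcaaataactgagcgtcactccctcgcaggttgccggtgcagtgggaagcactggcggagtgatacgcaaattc
Col4a6: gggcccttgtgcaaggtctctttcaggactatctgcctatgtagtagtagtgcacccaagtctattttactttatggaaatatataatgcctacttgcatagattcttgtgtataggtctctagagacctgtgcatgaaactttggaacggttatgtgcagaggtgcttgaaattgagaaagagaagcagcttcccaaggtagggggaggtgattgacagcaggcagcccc
Col4a5 has 1 CCAAT box in the printed run and Col4a6 has no match in its run. The windows of 300 bases, which reach past the annotated starts, hold 1 GC box in each gene beyond the printed part. Of all 32851 RefSeq windows of this length, 35.7% hold a GC box, 37.4% a CCAAT box and 13.6% a TATA box. Among 22 windows of the 19 tested collagens with an entry, 15 hold a GC box, 10 a CCAAT box and 1 a TATA box. These matches describe letters only.

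Col4a3 and Col4a4, the chains best known from the filtration barrier of the kidney, were dim and highest on control array 1. Col4a3 had intensities of 470.5, 111.8 and 159.1 in control, against 84.4 and 135.9 in TNF-LTBR. Control array 1 stood above the rest, and the log2 difference of -0.84, with a standard error of 0.62, was -0.28 without that array. Col4a4 fell below the brightness filter and was not tested. It had intensities of 711.7, 50.6 and 171.4 in control, against 20.0 and 120.8 in TNF-LTBR, with control array 1 again highest and TNF-LTBR array 1 lowest. The other Col4a3 probe set and the other Col4a4 probe sets, each also highest on control array 1, differed by -1.10, -0.78 and -1.69. Col4a3 lay just inside the filter, at a mean log2 value of 7.45, and Col4a4 just outside it, at 7.08.

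Type VI collagen varied widely between arrays of the same group, and Col6a3 had the widest range of the 25 tested collagens, 16.0-fold over the 5 arrays. Type VI collagen is made of chains from Col6a1, Col6a2 and Col6a3 and anchors cells and basement membranes to the surrounding matrix. Col6a1 had intensities of 5721, 4363 and 14634 in control, against 4972 and 16803 in TNF-LTBR. Col6a2 had intensities of 4552, 3536 and 14856 in control, against 2858 and 16008 in TNF-LTBR. In both, control array 3 and TNF-LTBR array 2 stood apart from the other 3 arrays, which lay close together. Col6a3 had intensities of 554.6, 3257 and 8496 in control, against 2025 and 9129 in TNF-LTBR. The same 2 arrays were highest for Col6a3, but here control array 1 was far below all others.

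Between groups the type VI chains were higher in TNF-LTBR by 0.35, 0.12 and 0.78 on the log2 scale for Col6a1, Col6a2 and Col6a3, with standard errors of 0.72, 0.94 and 1.27. None of these differences exceeded the spread within either group. Their unadjusted p-values in limma were 0.643, 0.900 and 0.566. Without TNF-LTBR replicate 2 the differences were -0.52, -1.12 and -0.30, while leaving out TNF-LTBR replicate 1 gave 1.23, 1.36 and 1.86, so each direction turned with which of these arrays was kept. Control arrays mattered too. Without control replicate 1 the difference was -0.10 for Col6a2 and -0.29 for Col6a3, and leaving out control replicate 2 gave -0.0014 for Col6a1 and -0.28 for Col6a2. Dcn, the fibril-binding proteoglycan decorin, lay at 10.25, 11.78 and 13.62 in control, against 12.94 and 13.72 in TNF-LTBR. Lum, the related proteoglycan lumican, chosen after its values were seen, lay at 10.18, 9.70 and 13.66 in control, against 10.13 and 13.66 in TNF-LTBR, with the same high arrays as Col6a1. Dcn, Tgfbi, Ogn, Aspn, Fn1 and Hspg2 also had their 2 highest values on control array 3 and TNF-LTBR array 2. For Fn1 and Hspg2 the ranges were small. Over all tested genes, 25.5% had these 2 arrays highest. Sparc, Nid1, Nid2, Postn, Bgn and the dim Fmod did not. Postn was lowest on control array 3 and TNF-LTBR array 2, at 8.49 and 8.57, and Bgn lay between 14.39 and 14.60 on all arrays.

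Upstream sequences of the 3 chains are shown because Col6a1 and Col6a2, which lie near each other on chromosome 10, and Col6a3 on chromosome 1 had the same high arrays. They are the minus strand of chr10:76726045-76726294, chr10:76623631-76623880 and chr1:90844002-90844221 in GRCm38.p6, from RefSeq, with capitals as above.
Col6a1: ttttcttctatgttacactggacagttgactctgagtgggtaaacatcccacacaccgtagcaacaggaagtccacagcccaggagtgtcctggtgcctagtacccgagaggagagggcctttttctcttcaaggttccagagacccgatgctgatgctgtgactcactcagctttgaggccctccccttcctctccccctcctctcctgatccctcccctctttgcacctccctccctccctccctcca
Col6a2: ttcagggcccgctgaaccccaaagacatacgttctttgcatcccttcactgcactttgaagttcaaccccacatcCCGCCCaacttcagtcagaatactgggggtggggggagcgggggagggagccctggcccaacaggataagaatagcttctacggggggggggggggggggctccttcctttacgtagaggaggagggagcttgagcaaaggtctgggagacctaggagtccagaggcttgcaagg
Col6a3: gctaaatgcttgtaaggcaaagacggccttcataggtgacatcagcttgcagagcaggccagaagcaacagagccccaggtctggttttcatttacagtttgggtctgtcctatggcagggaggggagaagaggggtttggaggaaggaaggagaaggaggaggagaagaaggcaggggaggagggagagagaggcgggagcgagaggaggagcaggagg
Col6a2 has 1 GC box in its run, and the runs of Col6a1 and Col6a3 hold none of the 3 motifs.

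Col8a1 and Col18a1 were low on the 2 arrays where the type VI chains were high. Col8a1, the main chain of type VIII collagen, a network collagen of vessel walls made by endothelial and smooth muscle cells, had intensities of 8973, 12226 and 3049 in control, against 9496 and 3141 in TNF-LTBR. Control array 3 and TNF-LTBR array 2 were the low arrays, close to each other, and the groups overlapped. The log2 difference was -0.35 with a standard error of 0.75, and it was 0.45 without TNF-LTBR replicate 2 but -1.14 without its replicate 1, and leaving out control replicate 2 gave 0.06. The other Col8a1 probe sets differed by -0.62 and -0.37. Its upstream run, the minus strand of chr16:57754738-57754987 in GRCm38.p6 from RefSeq, is also shown and holds 4 GC boxes in capitals. A GC box is found in 15 of the 22 collagen windows of 300 bases, and the Col6a2 run holds a GC box too. The part of these boxes in the array values was not tested.
Col8a1: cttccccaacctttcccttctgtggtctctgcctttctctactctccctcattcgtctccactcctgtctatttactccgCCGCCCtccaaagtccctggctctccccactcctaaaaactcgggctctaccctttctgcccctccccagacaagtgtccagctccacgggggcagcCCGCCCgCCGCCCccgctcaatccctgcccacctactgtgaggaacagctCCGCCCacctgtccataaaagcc

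Of the multiplexins, Col18a1 carries endostatin, a fragment that restrains the growth of vessels. It had intensities of 1760, 1825 and 348.9 in control, against 2438 and 384.4 in TNF-LTBR. Again control array 3 and TNF-LTBR array 2 were far below the rest, a 6.72-fold range over the 5 arrays, and the log2 difference was -0.10 with a standard error of 1.06. It was 1.21 without TNF-LTBR replicate 2 but -1.41 without its replicate 1, and leaving out control replicate 1 or 2 gave 0.27 or 0.30. The second Col18a1 probe set differed by -0.21. Col15a1, a basement membrane zone collagen of capillaries and muscle, had intensities of 1023, 2529 and 2041 in control, against 1574 and 2383 in TNF-LTBR. Control array 1 was lowest, the groups overlapped, and the log2 difference was 0.15 with a standard error of 0.43. Leaving out TNF-LTBR replicate 2 gave -0.15, and leaving out control replicate 1 gave -0.23.

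Col7a1, which forms the anchoring fibrils that tie basement membrane to connective tissue, had intensities of 195.0, 187.1 and 105.6 in control, against 298.4 and 243.6 in TNF-LTBR. Both TNF-LTBR arrays were above all controls, at 8.16 ± 0.20 (SD, n = 2) against 7.44 ± 0.44 (SD, n = 3) on the log2 scale, 1.65-fold. The unadjusted p was 0.0706 and the adjusted p 0.999 (limma). The difference was 0.46 without control replicate 3, and Col7a1 has 1 probe set on the array.

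FACIT collagens overlapped between groups in all 4 members tested, and only 13.2% of all tested genes did not overlap. Col14a1, which binds type I fibrils through their surface proteoglycans, had intensities of 402.6, 1387 and 323.1 in control, against 765.3 and 226.9 in TNF-LTBR. Control array 2 was highest and TNF-LTBR array 1 next, with a log2 difference of -0.42 and a standard error of 0.80. The difference turned to 0.21 without control replicate 2, and leaving out TNF-LTBR replicate 2 gave 0.42. Col12a1, its close relative in tendon and other dense tissue, had the same 2 high arrays, with intensities of 150.5, 498.1 and 208.9 in control, against 430.7 and 163.9 in TNF-LTBR. Its log2 difference was 0.08, with a standard error of 0.62, and its other probe sets, 2 of them dim, differed by -0.02, 0.46 and -0.73. Col16a1 differed by 0.14 and Col9a1, a chain of the type IX collagen of cartilage, by 0.33.

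The other 17 collagens had a mean log2 value below the filter of 7.17, which corresponds to an intensity of 128.1, and were not tested. Besides Col4a4 they were the fibrillar Col11a2 and Col24a1, the network chains Col8a2 and Col10a1, Col6a4 and Col6a5, the FACIT members Col9a2, Col9a3, Col19a1, Col20a1 and Col22a1, the transmembrane Col13a1, Col17a1, Col23a1 and Col25a1, and Col26a1. Their mean intensities over the 5 arrays ran from 3.90 for Col9a2 to 214.9 for Col4a4. Of these, Col22a1 was below all controls on both TNF-LTBR arrays, with intensities of 130.2, 126.8 and 86.0 in control, against 84.8 and 66.2 in TNF-LTBR. Col19a1 was above all controls, at 44.3, 34.2 and 45.8 in control, against 61.1 and 62.3 in TNF-LTBR. A probe set of Col19a1 nearly as bright went the other way, with both TNF-LTBR arrays below all controls and a log2 difference of -0.40 against 0.44, and the remaining one overlapped at 0.07. The other Col22a1 probe sets overlapped, at -0.44 and 0.16. Col9a2 lay above all controls at the bottom of the scale. Col26a1 had a second, dimmer probe set that differed by 1.15 on the log2 scale, against 0.27 on the brighter one, at a mean of 4.92, where the added 16 exceeds most intensities. No detection calls were used, so a dim value is not an absence.

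**Figure D3:**
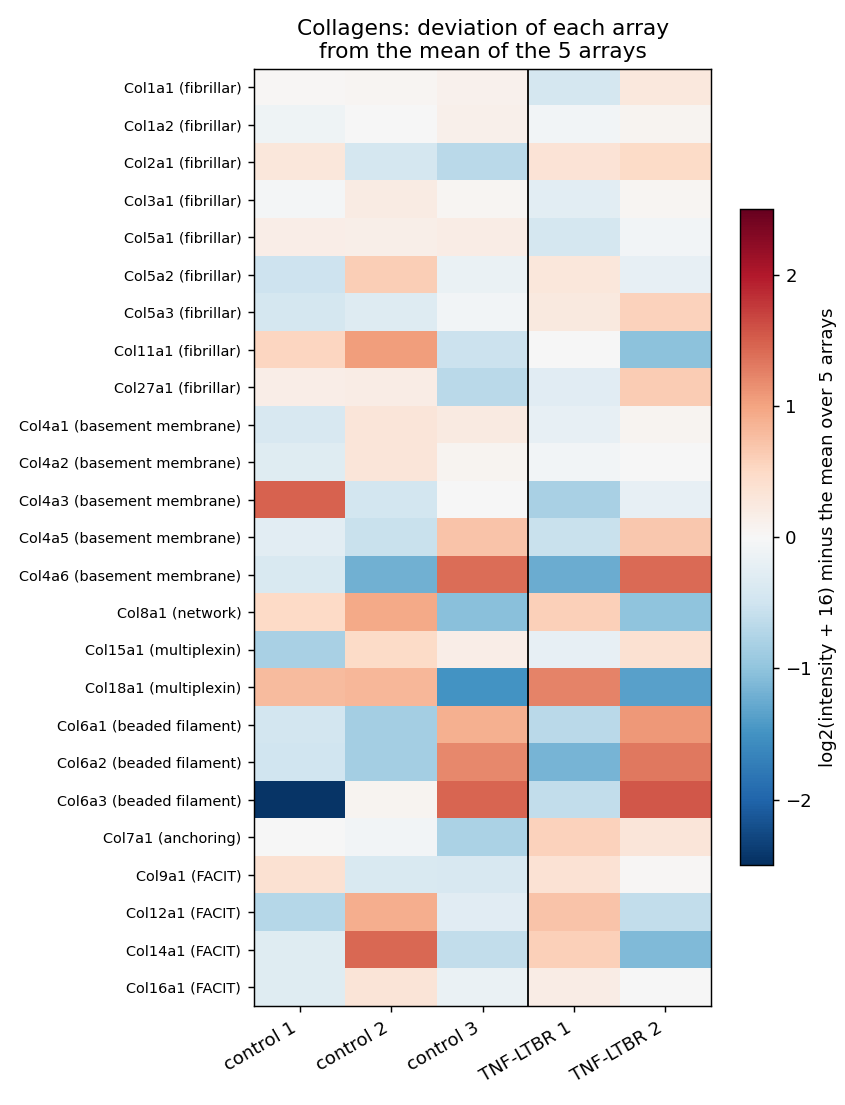
Colours give the log2 value of each array minus the mean of the 5 arrays, for each tested collagen, and a line separates the 3 control arrays from the 2 TNF-LTBR arrays. Type VI chains, Col4a5 and Col4a6 are red on control array 3 and TNF-LTBR array 2, and Col8a1, Col18a1, Col11a1 and Col14a1 are blue there.

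Counted by array, control array 3 and TNF-LTBR array 2 held the 2 highest values for 7 of the 25 collagens, or 28%, and the 2 lowest for 4, or 16%. Over all tested genes these shares were 25.5% and 23.1%, so the collagens were near the background for this pair. The 7 were Col6a1, Col6a2, Col6a3, Col4a5, Col4a6, Col1a1 and Col1a2, and the last 2 of these had small ranges. The 4 were Col8a1, Col18a1, Col11a1 and Col14a1. Control array 2 and TNF-LTBR array 1 held the 2 highest values for 6 collagens, or 24%, against 20.7% of all tested genes. Control array 1 and TNF-LTBR array 1 held the 2 lowest values for 7 collagens, or 28%, against 10.4% of all tested genes. These were Col1a1, Col1a2, Col3a1, Col4a1, Col4a2, Col6a3 and Col15a1, and the excess over the background was not tested.

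Differences between replicates described the same pattern. Across the 25 collagens, control 3 minus control 2 and TNF-LTBR 2 minus TNF-LTBR 1 had a Pearson correlation of 0.94, against 0.87 over all tested genes. For control 3 minus control 1 the correlation was 0.74, and for control 2 minus control 1 it was -0.24, against 0.62 and -0.51 over all genes. These are correlations across genes, which are not independent replicates, and all 3 share the same TNF-LTBR arrays. The differences of single members were large. Col4a6 differed by 2.61 between control arrays 3 and 2 and by 2.66 between TNF-LTBR arrays 2 and 1, and Col18a1 by -2.34 and -2.62. Both exceed the difference between groups of any tested collagen.

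**Figure D4:**
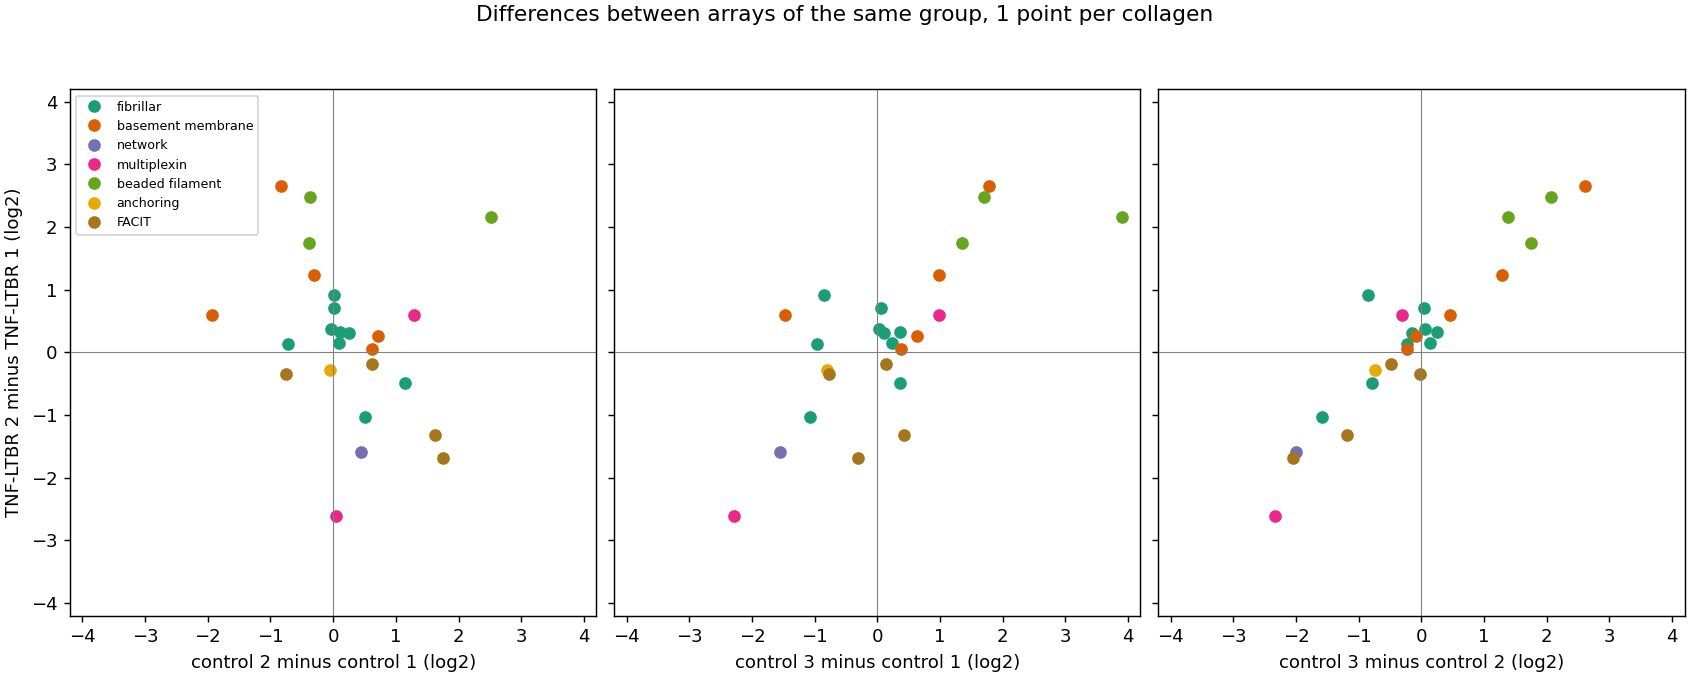
Each point is 1 of the 25 tested collagens, coloured by class. The vertical axis is TNF-LTBR 2 minus TNF-LTBR 1 and the horizontal axis, from left to right, control 2 minus control 1, control 3 minus control 1 and control 3 minus control 2, all on the log2 scale, with correlations of -0.24, 0.74 and 0.94.

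Markers of other cell types and states varied over the same arrays. In these bulk cultures, fewer cells of a type and less RNA per cell cannot be told apart. The summed intensity of 8 type I interferon genes lay at 13.20, 11.39 and 14.35 on control arrays 1 to 3 and at 12.04 and 14.36 on TNF-LTBR arrays 1 and 2, on the log2 scale. That is the order of arrays seen for Col6a1. Ifit3, an interferon-induced protein and 1 of the 8, lay at 12.12, 10.04 and 13.25 in control, against 10.81 and 13.04 in TNF-LTBR.

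The summed level of 8 macrophage and leukocyte genes, 6 of them past the filter, ran the other way, highest on TNF-LTBR array 1 at 13.16, next on control array 2, then 12.00 on control array 1, 11.59 on TNF-LTBR array 2 and 11.42 on control array 3. That is the order of arrays of Col18a1. Ptprc, the pan-leukocyte CD45 gene, chosen after its values were seen, lay between 4.82 and 6.51 and was 1 of the 2 below the filter. Cd53, the brightest of the 8 by mean log2 value, lay between 10.13 and 11.32, and Lyz2 between 6.37 and 11.95. Cd14, between these by mean, lay between 9.27 and 10.10 and was lowest on control array 1. For Cd53, Cd14 and Lyz2 the 2 highest arrays were those of the sum, but none ranked all arrays as the sum did. For the 11 smooth muscle genes, 7 past the filter, the sums were 14.58, 14.31 and 13.55 in control, against 13.76 and 13.50 in TNF-LTBR. Acta2, smooth muscle actin, was highest on control array 2 and lay at 12.89 on control array 1, 11.03 on control array 3 and 12.03 and 11.02 on the TNF-LTBR arrays. Myh11, the smooth muscle myosin, also chosen after its values were seen, lay between 4.36 and 5.84, below the filter. Tpm2 and Smtn, with Acta2 the brightest of the 11 by mean log2 value, lay between 12.69 and 13.21 and between 9.94 and 11.54. The 11 fibroblast and pericyte genes, 10 past the filter, summed to 14.97, 15.73 and 15.48 in control, against 15.78 and 15.59 in TNF-LTBR. Pdgfra, a fibroblast receptor, lay at 11.05, 12.52 and 12.47 in control, against 13.14 and 12.75 in TNF-LTBR. It was the only gene of this list whose groups did not overlap, or 10% of the 10 tested, against 13.2% of all tested genes. Rgs5 had the largest difference of the list, 2.28 with a standard error of 1.05, and its groups overlapped. Of the 10 tested, 6 were higher in TNF-LTBR and 4 lower, with a median difference of 0.08. S100a4, the brightest, differed by 0.07 and Pdgfrb by -0.33. The 15 endothelial genes, 7 past the filter, summed to 12.06, 12.19 and 11.70 in control, against 12.22 and 11.84 in TNF-LTBR. Control array 3 thus had the lowest endothelial and macrophage sums. The part of any of these lists in the collagen values was not tested.

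Genes that make, process, bind and break down collagen showed no call between groups. Of 61 tested genes in 7 lists, 0 passed in limma after adjustment over all genes and 1, Loxl4, had an unadjusted p under 0.05, as had 1.74% of all tested genes. Enzymes that hydroxylate and glycosylate collagen chains were higher for 9 of 12 tested, with a median difference of 0.13. Colgalt1, a collagen galactosyltransferase, lay at 11.19, 11.42 and 11.63 in control, against 11.64 and 11.84 in TNF-LTBR, Plod2, a lysyl hydroxylase, differed by -0.58 and P4ha3, a prolyl hydroxylase subunit, by 0.67. Genes of folding and export, 5 higher and 6 lower, had a median of -0.0067, with Fkbp7 at -0.19, Sec24d at 0.20 and Ppib, the cyclophilin of collagen folding, at 0.10.

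For cleavage of propeptides all 4 tested genes were slightly higher, with a median of 0.04. Pcolce, the enhancer of procollagen cleavage, differed by 0.04, Bmp1, the proteinase itself, by 0.06 and Pcolce2 by 0.04. Among 5 crosslinking genes the median was 0.03. Loxl4, a lysyl oxidase, lay at 9.15, 8.95 and 8.98 in control, against 9.66 and 9.32 in TNF-LTBR, above all controls, with an unadjusted p of 0.0447 and an adjusted p of 0.999 (limma). Its relatives Loxl1 and Loxl3 differed by -0.27 and 0.45. Of 12 tested fibril-associated matrix genes 6 were higher, with a median of -0.0087. Nid2, a basement membrane linker, differed by -0.84, Dcn by 1.44 and Hspg2, which encodes perlecan, by 0.17.

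Collagen receptors were lower for 6 of 7 tested, with a median of -0.25. Itga10, an integrin subunit that binds collagen, lay at 8.17, 7.97 and 8.17 in control, against 7.56 and 7.74 in TNF-LTBR, below all controls, with an unadjusted p of 0.0588 in limma. Itga2, another such subunit, differed by 0.42 and Ddr1, a receptor kinase for collagen, by -0.28. Genes of collagen breakdown were higher for 7 of 10 tested, with a median of 0.04. The collagenase Mmp13 differed by 0.57, with overlap, and the proteinases Mmp14 and Mmp2 by 0.22 and -0.24.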

How the data were processed

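Array intensities on a linear scale were used as deposited by the authors, 1 value per probe set and array. GCOS version 1.4 is named in the submitters' processing notes, and how probes were summarised is not given in the sources used here. Of 45101 probe sets, 34958 had 1 symbol in the platform annotation, 932 several and 9211 none listed. Each gene was read on the probe set with the highest mean intensity over the 5 arrays. Values were transformed as log2(intensity + 16), which understates changes of dim genes, and the 60% of genes with the highest mean log2 value were tested. Array medians differed by at most a ratio of 1.10, so no further scaling was applied. limma 3.58.1 in R 4.3.3 (lmFit, eBayes with trend, 3 residual degrees of freedom) compared TNF-LTBR with control, two-sided, with Benjamini-Hochberg adjustment over 10916 genes and a threshold of 0.05. The script was tested on simulated data. With 3 and 2 arrays, the smallest p of an exact permutation test is 0.1. The number of arrays limits the precision. Groups and replicate numbers came from the titles. All 42 collagens matched the RefSeq gene table by Entrez ID. Collagen classes followed a fixed list. Named collagens were those without overlap, the 8 with the largest difference and 14 chosen beforehand by role, and from each pathway list the 3 with the smallest p. Col4a6, Col12a1, Col16a1, Col27a1 and Col9a1 and the dim collagens are described outside that rule. The members and lists were chosen with earlier results of these data known. Alternatives were other pseudocounts (1 and 64), no filter or a 40% filter, arrays centred on medians, quantile normalization, all probe sets kept apart, suffixed probe sets (_x_at, _s_at, _a_at, _f_at) dropped, no trend, array weights, a block for the replicate number, and 1 array left out in turn. Same-numbered arrays did not deviate together: the correlation was 0.12 for number 1 and -0.80 for number 2.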

Additional observations from a re-analysis of the deposited data

How the results depend on the processing

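The count of calls was 0 for the collagens and for all genes under all 16 alternatives in limma, with the smallest adjusted p over all genes between 0.788 and 1. The median difference of the collagens tested, 0.08 as reported, was -0.0644 with every probe set on its own and ranged from -0.161 to 0.0792 when 1 array was left out. Of 20 named collagens, 7 kept their direction under every alternative that gave a value, namely Col11a1, Col2a1, Col3a1, Col4a3, Col5a1, Col5a3 and Col7a1. The strict filter gave no value for Col4a3, Col5a3 and Col7a1, and leaving out suffixed probe sets gave none for Col2a1 and Col6a2. The other 13 turned at least once. Col1a2 was -0.0209 with arrays centred on their medians. With the replicate block, which removes control array 3 from the comparison because its number has no partner, Col5a2 was -0.0042 and calls stayed at 0. Without 1 array, the differences ranged from -1.27 to 0.42 for Col14a1, -0.23 to 0.45 for Col15a1, -1.41 to 1.21 for Col18a1, -0.51 to 0.20 for Col1a1, -0.0682 to 0.0792 for Col1a2 and -0.34 to 0.0189 for Col4a1. They ranged from -0.23 to 0.0779 for Col4a2, -0.53 to 0.71 for Col4a5, -0.18 to 0.39 for Col5a2, -0.52 to 1.23 for Col6a1, -1.12 to 1.36 for Col6a2, -0.30 to 1.86 for Col6a3 and -1.14 to 0.45 for Col8a1. The causes were not tested. When a group of 2 was left with 1 array, that array was assumed to vary like the controls.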
